A study of Mus musculus with 20 samples.

Results

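The 10 genes described here, Dpp4, Pi16, Cd55, Anxa3, Emilin2, Limch1, Ly6c1, Uchl1, Efhd1 and Creb5, are markers of DPP4+ interstitial progenitors, and each was found by its gene symbol in a table of 27179 genes. RNA-seq had been done on adipocyte progenitor cells, or APCs, which were sorted by flow cytometry as PDGFRb+ cells from the inguinal white adipose tissue, the subcutaneous fat of the groin, of male C57BL/6 mice. The 4 groups, of 5 libraries each, were DPP4+ cells of mice in the cold (6 °C) for 24 h, DPP4+ cells of mice at room temperature (22 °C), and DPP4- cells of mice at each of these temperatures. All groups shared the strain, the sex, the fat depot and the PDGFRb gate, no transgene is named, and the age of the mice is not given in the sources used here. DPP4 was the marker on which the cells were divided, so the Dpp4 difference between the sorted populations is the choice of the cells and is given as a description. The labels do not say whether the libraries of a group came from separate animals or from pools, and p-values therefore measure the spread between these samples, which may be technical.

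Interstitial progenitors lie in the connective tissue sheath around fat lobules and along vessels, and are known as an early, multipotent stage that can give rise to committed preadipocytes. DPP4 is the surface protein most often used to sort them, and Pi16 and Cd55 mark the same cells or closely related fibroblasts of other organs. The other genes on the list were added to such marker panels because their RNA is enriched in these cells. They encode proteins of the matrix, the cytosol, the cytoskeleton, mitochondria and the nucleus.

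Promoter sequence was taken from RefSeq on GRCm38.p6, as windows of 300 bases from 250 before to 50 after a start annotated for the gene, and 9 of the 10 genes matched (all but Anxa3). The windows of the sort marker Dpp4 (chr2:62412182-62412481, minus strand), of Pi16 (chr17:29318632-29318931, plus strand), whose profile over the libraries lay nearest to that of Dpp4 among the 10 genes, and of Cd55 (chr1:130462695-130462994, minus strand) and Creb5 (chr6:53287053-53287352, plus strand), which were higher in the cold in DPP4+ cells, are shown 5′ to 3′ with motif matches in capitals.
Dpp4: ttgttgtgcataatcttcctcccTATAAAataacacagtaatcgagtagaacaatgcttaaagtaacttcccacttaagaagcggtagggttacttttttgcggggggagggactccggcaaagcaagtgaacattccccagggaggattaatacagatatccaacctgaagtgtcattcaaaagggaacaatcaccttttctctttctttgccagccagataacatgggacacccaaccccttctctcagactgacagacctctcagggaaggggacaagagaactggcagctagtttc
Pi16: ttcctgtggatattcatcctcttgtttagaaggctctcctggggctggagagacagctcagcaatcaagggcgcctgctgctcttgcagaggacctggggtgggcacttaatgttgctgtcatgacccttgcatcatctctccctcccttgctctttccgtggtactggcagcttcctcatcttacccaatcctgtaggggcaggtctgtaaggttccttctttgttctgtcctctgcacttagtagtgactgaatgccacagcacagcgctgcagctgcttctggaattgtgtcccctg
Cd55: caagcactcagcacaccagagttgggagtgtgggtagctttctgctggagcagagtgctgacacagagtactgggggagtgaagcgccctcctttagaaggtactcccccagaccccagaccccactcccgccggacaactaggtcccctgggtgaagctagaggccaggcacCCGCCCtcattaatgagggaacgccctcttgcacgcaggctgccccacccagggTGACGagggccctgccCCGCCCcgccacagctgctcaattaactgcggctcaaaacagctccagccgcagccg
Creb5: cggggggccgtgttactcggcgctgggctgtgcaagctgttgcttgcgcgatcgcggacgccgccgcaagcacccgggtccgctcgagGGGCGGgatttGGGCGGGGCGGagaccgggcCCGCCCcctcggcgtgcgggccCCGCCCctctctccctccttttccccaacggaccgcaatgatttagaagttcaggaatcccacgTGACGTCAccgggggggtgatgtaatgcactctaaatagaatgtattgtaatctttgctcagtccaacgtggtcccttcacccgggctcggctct
The motifs searched on both strands were the cAMP response element TGACGTCA, its core TGACG, which also lies within the full element, the AP-1 site TGANTCA, the TATA box TATAAA and the GC box GGGCGG. The Creb5 window held the full cAMP response element, starting at -45, and 5 GC boxes, with positions counted from the start used for the window. These starts lay inside the outermost annotated start of the gene, by 84 bases for Dpp4, 86 for Pi16, 2265 for Cd55 and 77 for Creb5. Over the 32851 windows of the RefSeq table, 1.79% held the full element, 20.8% the core, 7.81% the AP-1 site, 13.6% the TATA box and 35.7% the GC box. The Cd55 window held the core at -23 and GC boxes at -77 and -7, and the core was also found in a window of Emilin2, of Limch1 and of Efhd1, which were not called in the cold. The Dpp4 window held a TATA box at -227 and the Pi16 window none of the 5 motifs. A second Creb5 window, farther downstream on the chromosome, held an AP-1 site at -45. These matches describe letters in the windows and were not tested as binding sites.

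Each library held 8.49 to 18.8 M reads in genes, where M stands for 1000000, and the tests covered 13057 genes whose mean was 10 normalized reads or more. The totals of the deposited values differed between the populations. DPP4+ libraries summed to 10.8 to 12.1 M at 6 °C and to 10.2 to 11.5 M at 22 °C, against 15.4 to 16.2 M and 16.3 to 17.3 M for DPP4- libraries. All 6 fibroblast progenitor markers on the list used to check the cells (Pdgfra, Pdgfrb, Col1a1, Col3a1, Dcn and Lum) were tested and none was at 0 in a group. In DPP4+ against DPP4- cells 0 were higher and 6 lower at 6 °C, and 1 higher and 5 lower at 22 °C (medians -1.37 and -1.33). These 6 summed to 344815 to 519536 in DPP4+ and 1006106 to 1466758 in DPP4- cells at 6 °C. Over all tested genes 38.5% were higher and 35.7% lower at 6 °C, and 38.7% and 36.2% at 22 °C. Markers of lymphocytes summed to at most 73.6 and of epithelial cells to at most 37.6 normalized reads in any library. Of 10 endothelial markers 9 were tested and none was at 0 in a whole group. In DPP4+ against DPP4- cells 3 were higher and 5 lower at 6 °C and 1 higher and 5 lower at 22 °C (medians -1.53 and -1.73), and their sum, 2820 to 4301 in DPP4+ cells at 6 °C and 2603 to 3315 at 22 °C, against 916 to 1410 and 1027 to 1461 in DPP4- cells, was mostly Tek. Of 6 mature adipocyte markers 5 were tested, with sums of 479 to 928 in DPP4+ cells at 6 °C and 1148 to 1563 at 22 °C, against 147 to 376 and 32.4 to 194 in DPP4- cells (2 higher and 1 lower at 6 °C, 4 higher and 0 lower at 22 °C). The 8 pericyte and smooth muscle markers summed to 4066 to 6907 and 9016 to 11741 in DPP4+ cells, against 4920 to 6508 and 3935 to 5345 in DPP4- cells (2 higher and 4 lower at 6 °C, 2 and 5 at 22 °C). Granulocyte and mast cell markers summed to at most 251 in any library other than DPP4- cold library 2, at 1472. That library was also the highest of its group for macrophage and monocyte markers (620, group median 232). The same held for lymphocyte markers (73.6, group median 26.4). The part of these cells' RNA in the differences between the populations was not tested. In bulk samples such as these, fewer cells of a type and less RNA per cell cannot be told apart.

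Which of the markers separated the sorted populations was examined first. All 9 markers other than Dpp4 were higher in DPP4+ than in DPP4- cells at both temperatures (limma adjusted p under 0.05), where 38.5% of all tested genes were higher and 35.7% lower at 6 °C, and 38.7% higher and 36.2% lower at 22 °C. The size of the difference varied widely, with Pi16 167-fold higher at 6 °C and 107-fold higher at 22 °C at the top. At the bottom Ly6c1 was 1.46-fold and 1.37-fold higher, and Creb5 1.72-fold and 1.24-fold. By size at 22 °C the markers were placed in a steep group (Pi16, Limch1, Uchl1, Anxa3 and Efhd1, at 20.1-fold or more), an intermediate pair (Cd55 and Emilin2) and a shallow pair (Ly6c1 and Creb5). Pi16 stood well above the others of the steep group. At 6 °C Cd55 was 14.7-fold and Emilin2 3.41-fold higher, and Cd55 could not be told from Efhd1.

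**Figure D1:**
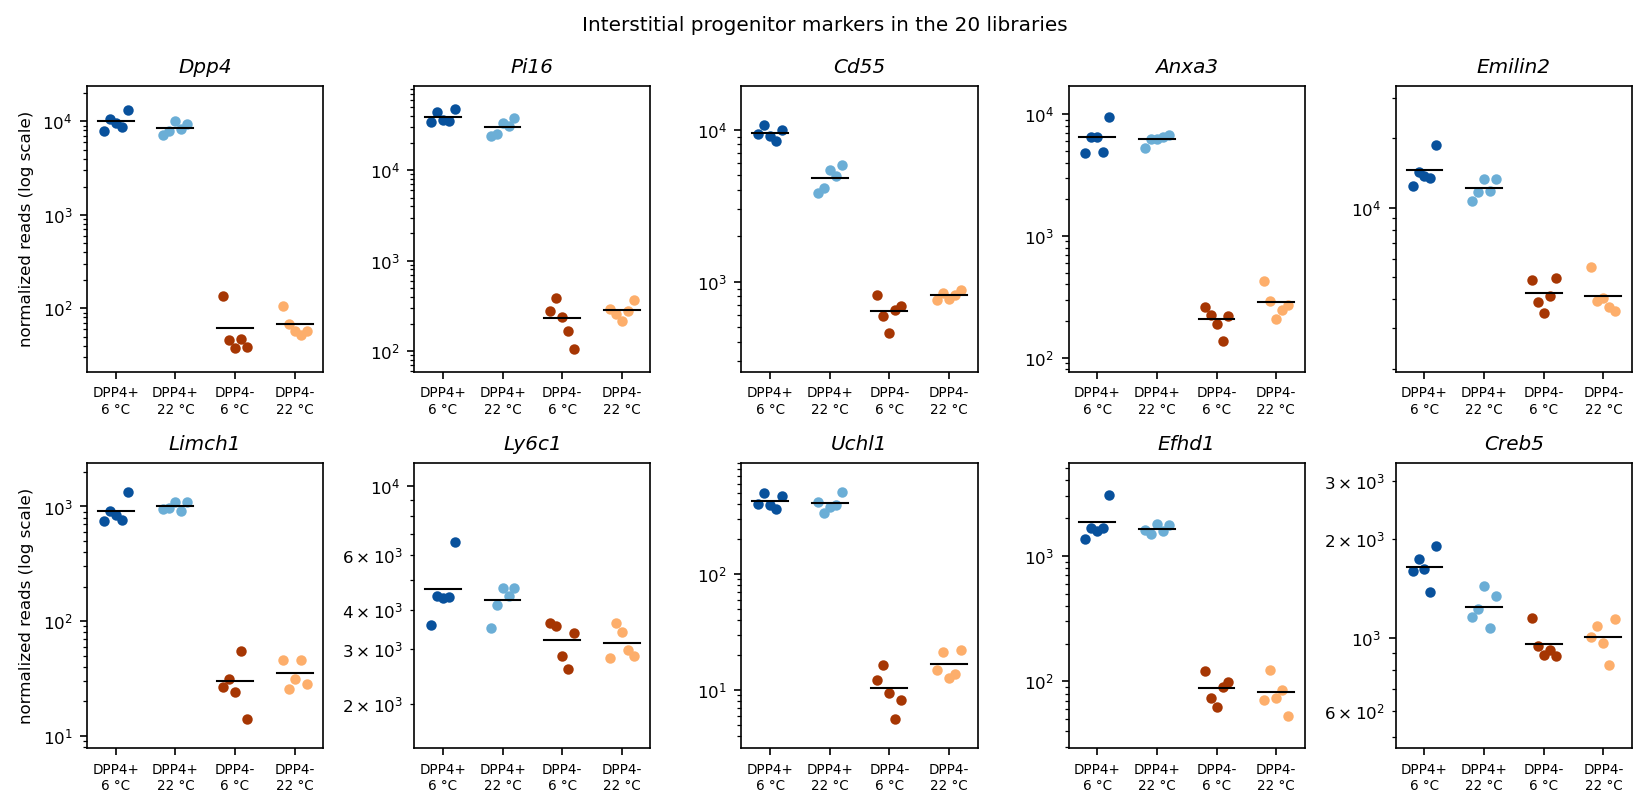
Normalized reads of the 10 markers (log scale) in each of the 20 libraries, by population and temperature. Points are libraries, 5 per group in order of their number, and bars are group means. For 8 genes every DPP4+ library at 6 °C lies far above every DPP4- library, while the ranges of Ly6c1 (3586 to 6587 against 2594 to 3637 at 6 °C) overlap and those of Creb5 (1383 to 1903 against 880 to 1152 at 6 °C) lie close together.

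Among the surface proteins, Dpp4, a membrane peptidase that trims dipeptides from chemokines and peptide hormones, is given as a description (Entrez gene 13482, GRCm38 chromosome 2, 62330073 to 62412315). It had 7871, 10657, 9704, 8675 and 13270 normalized reads in libraries 1 to 5 of DPP4+ cells at 6 °C, and 137, 46.4, 37.8, 47.1 and 38.7 in DPP4- cells at 6 °C. At 22 °C it had 7170, 7850, 9994, 8264 and 9449 in DPP4+ cells, and 105, 67.6, 56.7, 52.2 and 57.9 in DPP4- cells. The populations were far apart in every library, and library 1 was the highest of each DPP4- group. The DPP4- level, which rested on 236 reads over the 5 libraries at 6 °C and 247 at 22 °C, was 0.611% of the DPP4+ level at 6 °C and 0.795% at 22 °C.

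Pi16, a peptidase inhibitor of the cysteine-rich secretory protein family that can be held at the membrane (Entrez gene 74116, chromosome 17, 29318796 to 29328903), had the highest level per kilobase of the 10 in DPP4+ cells. It had 34283, 43680, 35684, 34853 and 47605 normalized reads in DPP4+ cells at 6 °C, and 279, 384, 236, 168 and 106 in DPP4- cells at 6 °C. At 22 °C it had 23811, 25431, 33036, 30707 and 37588 in DPP4+ cells, and 294, 257, 215, 275 and 365 in DPP4- cells. No DPP4- library came near the DPP4+ range, and library 5, the highest of both DPP4+ groups, was the lowest of DPP4- cells at 6 °C. The log2 difference was 7.50 at 6 °C (SE 0.25, adjusted p = 5.96e-15, limma) and 6.74 at 22 °C (SE 0.25, adjusted p = 3.08e-14, limma).

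Cd55, or decay accelerating factor, is a surface protein that stops complement activation on the cell that carries it (Entrez gene 13136, chromosome 1, 130429798 to 130465009). It had 9303, 10755, 9074, 8376 and 9938 normalized reads in DPP4+ cells at 6 °C, and 815, 597, 459, 653 and 693 in DPP4- cells at 6 °C. At 22 °C it had 3799, 4157, 5402, 4988 and 5843 in DPP4+ cells, and 759, 842, 770, 812 and 877 in DPP4- cells. The DPP4+ libraries were apart from the DPP4- libraries at both temperatures, and DPP4+ cells were 14.7-fold higher at 6 °C (log2 difference 3.90, SE 0.12, adjusted p = 5.88e-17, limma) and 5.96-fold higher at 22 °C (2.56, SE 0.12, adjusted p = 7.25e-14, limma). Its near-identical neighbour gene Cd55b, from which reads could be misassigned, had means of 5.87 ± 1.55 and 1.16 ± 1.03 in DPP4+ cells at 6 °C and 22 °C, and 0.270 ± 0.604 and 0.822 ± 0.756 in DPP4- cells (SD, n = 5).

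Ly6c1, a GPI-anchored protein of the Ly6 family that is also known from endothelial cells and monocytes (Entrez gene 17067, chromosome 15, 75044018 to 75048920), was present in both populations. It had 3586, 4426, 4364, 4414 and 6587 normalized reads in DPP4+ cells at 6 °C, and 3637, 3538, 2853, 2594 and 3366 in DPP4- cells at 6 °C. At 22 °C it had 3495, 4151, 4691, 4442 and 4689 in DPP4+ cells, and 2813, 3639, 3395, 2986 and 2843 in DPP4- cells. The ranges overlapped at both temperatures, through library 1 of each DPP4+ group, and the log2 difference was 0.53 at 6 °C (SE 0.13, adjusted p = 0.000982, limma) and 0.45 at 22 °C (SE 0.13, adjusted p = 0.00361, limma). At 6 °C the endothelial markers Pecam1 and Cdh5 averaged 23.2 ± 10.2 and 21.7 ± 4.23 in DPP4+ cells (SD, n = 5). Their means in DPP4- cells were larger, at 68.2 ± 28.3 and 58.4 ± 29.1. Of the 9 endothelial markers tested there, limma called 5 down and 3 up in the DPP4+ population. The endothelial list summed to 2820 to 4301 in DPP4+ and 916 to 1410 in DPP4- libraries. Of 5 macrophage and monocyte markers tested, 2 were down and 1 was up. The part of endothelial or monocyte RNA in the Ly6c1 difference was not tested. Reads could be misassigned from Ly6c2, a near-identical gene, which had at most 21.8 normalized reads in any library.

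Emilin2 encodes a matrix glycoprotein of elastic fibres and is the secreted matrix protein of the list (Entrez gene 246707, chromosome 17, 71252172 to 71311556). It ranged from 12449 to 18740 normalized reads (median 13775) in DPP4+ cells and from 3493 to 4937 (median 4133) in DPP4- cells at 6 °C, and from 10680 to 13308 (median 11822) and from 3559 to 5543 (median 3929) at 22 °C. The populations did not overlap at either temperature, but the DPP4- cells kept 29.3% of the DPP4+ level at 6 °C and 34.2% at 22 °C. The log2 difference was 1.77 at 6 °C (SE 0.12, adjusted p = 6.85e-12, limma) and 1.56 at 22 °C (SE 0.12, adjusted p = 6.56e-11, limma).

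Limch1, Anxa3, Efhd1 and Uchl1, whose proteins lie inside the cell, came after Pi16 in the size of the difference, while Creb5, a nuclear protein, had one of the smallest. Limch1, an actin-associated activator of non-muscle myosin (Entrez gene 77569, chromosome 5, 66745889 to 67057159), averaged 921 ± 245 normalized reads in DPP4+ cells and 30.2 ± 15.0 in DPP4- cells at 6 °C, and 1008 ± 83.7 and 35.5 ± 9.84 at 22 °C (SD, n = 5), 30.5-fold and 28.4-fold higher. Anxa3, a calcium-dependent membrane-binding annexin (Entrez gene 11745, chromosome 5, 96793385 to 96845968), averaged 6447 ± 1885 and 206 ± 45.8 at 6 °C, and 6209 ± 558 and 289 ± 83.0 at 22 °C, 31.2-fold and 21.5-fold higher in DPP4+ cells. Efhd1, a mitochondrial calcium-binding EF-hand protein (Entrez gene 98363, chromosome 1, 87264353 to 87310841), averaged 1868 ± 689 and 89.4 ± 23.2 at 6 °C, and 1643 ± 133 and 81.5 ± 26.1 at 22 °C, 20.9-fold and 20.1-fold higher in DPP4+ cells. The DPP4+ and DPP4- libraries were apart for all 3 genes at both temperatures, and their adjusted p-values were at most 2.01e-12 (limma).

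Uchl1, a ubiquitin C-terminal hydrolase best known from neurons (Entrez gene 22223, chromosome 5, 66676121 to 66687234), was rare in DPP4- cells. It had 401, 494, 390, 366 and 470 normalized reads in DPP4+ cells at 6 °C, and 12.1, 16.4, 9.45, 5.65 and 8.23 in DPP4- cells at 6 °C. At 22 °C it had 414, 333, 377, 393 and 507 in DPP4+ cells, and 14.9, 21.0, 12.6, 13.8 and 21.9 in DPP4- cells. The populations were apart at both temperatures, with log2 differences of 5.29 at 6 °C (SE 0.20, adjusted p = 7.68e-17, limma) and 4.53 at 22 °C (SE 0.20, adjusted p = 1.56e-15, limma). Only 41 reads at 6 °C and 61 at 22 °C lay behind the DPP4- means. Uchl1 and Limch1 are neighbours on chromosome 5, 58654 bases apart with 0 RefSeq genes between them.

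Creb5, the transcription factor of the list, belongs to the family of CREB and ATF proteins that bind cAMP response elements (Entrez gene 231991, chromosome 6, 53287226 to 53700364). It had 1602, 1742, 1622, 1383 and 1903 normalized reads in DPP4+ cells at 6 °C, and 1152, 949, 889, 917 and 880 in DPP4- cells at 6 °C. At 22 °C it had 1160, 1227, 1436, 1071 and 1344 in DPP4+ cells, and 1007, 1090, 969, 831 and 1141 in DPP4- cells. The populations were apart at 6 °C and overlapped at 22 °C. The log2 difference was 0.78 at 6 °C (SE 0.096, adjusted p = 1.26e-07, limma) and 0.31 at 22 °C (SE 0.096, adjusted p = 0.00613, limma).

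**Figure D2:**
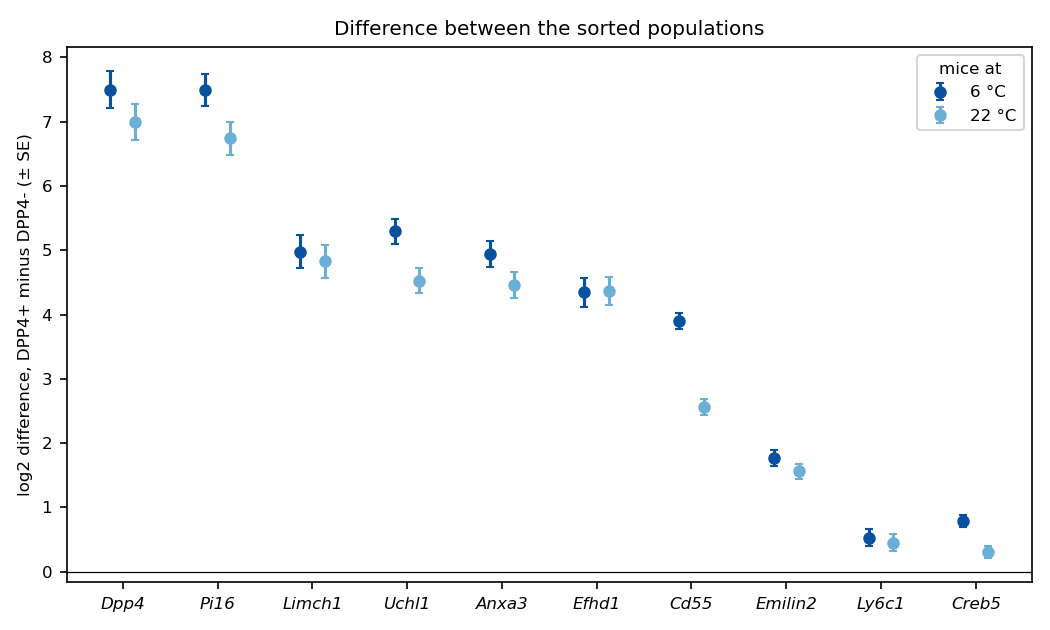
Log2 difference between DPP4+ and DPP4- cells for each marker at 6 °C and at 22 °C, with the standard error of the fit across 20 libraries. Differences run from 7.50 (Dpp4 and Pi16) to 0.53 (Ly6c1) at 6 °C, and Cd55, at 3.90 and 2.56, shows the widest gap between the temperatures.

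The order of these differences was read against their error. At 22 °C the 95% interval of the step between neighbours excluded 0 between Pi16 and Limch1 (1.91, interval 1.27 to 2.55), Efhd1 and Cd55 (1.81, 1.36 to 2.26), Cd55 and Emilin2 (0.99, 0.70 to 1.29) and Emilin2 and Ly6c1 (1.11, 0.83 to 1.39). Limch1, Uchl1, Anxa3 and Efhd1 could not be ordered among themselves at 22 °C, and neither could Dpp4 and Pi16, nor Ly6c1 and Creb5. At 6 °C the interval excluded 0 between Pi16 and Uchl1 (2.20, 1.82 to 2.59), Anxa3 and Efhd1 (0.60, 0.0865 to 1.11), Cd55 and Emilin2 (2.13, 1.84 to 2.42) and Emilin2 and Creb5 (0.98, 0.71 to 1.26). The step between Efhd1 and Cd55 was 0.44 at 6 °C (interval -0.000937 to 0.89). The groups of 5 did not overlap for 8 of the 9 markers at 6 °C (29.8% of all tested genes were apart and higher in DPP4+ cells) and for 7 of 9 at 22 °C (33.4%). The median log2 difference of the 9 markers was 4.34 at 6 °C and 4.37 at 22 °C, against 0.03 for all tested genes at both temperatures. When every library was scaled to the same total, the median over all genes became 0.50 at 6 °C (8240 higher and 2461 lower, against 5031 and 4662) and 0.64 at 22 °C (9107 and 2039, against 5052 and 4730), and the log2 difference of Creb5 became 1.25 and 0.92, and that of Ly6c1 0.998 and 1.07.

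Levels were compared between the markers per kilobase of exon, as normalized reads per kilobase (SD, n = 5). In DPP4+ cells at 22 °C Pi16 stood highest at 5307 ± 991, followed by Emilin2 (2925 ± 269), Ly6c1 (2775 ± 322) and Anxa3 (2361 ± 212), then Cd55 (1910 ± 336) and Dpp4 (1622 ± 220). Efhd1 (886 ± 71.5) and Uchl1 (344 ± 54.7) followed, and Limch1 (151 ± 12.5) and Creb5 (146 ± 17.0) were lowest, within each other's spread. In DPP4+ cells at 6 °C Pi16 was again highest (6911 ± 1065), Cd55 came next at 3746 ± 356, within the spread of Emilin2 (3500 ± 586), and Limch1 was lowest at 138 ± 36.7. In DPP4- cells at 22 °C the order was another one, led by Ly6c1 (2027 ± 236), Emilin2 (999.5 ± 192) and Cd55 (321 ± 19.5), with Creb5 (118 ± 14.0) and Anxa3 (109.7 ± 31.5) next and Limch1 (5.30 ± 1.47) lowest. Pi16, the leading marker of DPP4+ cells, stood there at 49.6 ± 9.73 and Dpp4 at 12.9 ± 4.11.

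How the markers responded to 24 h of cold was examined next, in DPP4+ cells first. Cd55 and Creb5 rose and none of the 10 fell (limma adjusted p under 0.05), 2 of 10 where 46.1% of all tested genes passed, 23.5% with a rise and 22.6% with a fall. Cd55 was 1.96-fold higher, at 9489 ± 901 normalized reads in the cold and 4838 ± 851 at 22 °C (SD, n = 5), and all 5 cold libraries lay above all 5 libraries at 22 °C (38.4% of all tested genes were apart in either direction). Its log2 difference was 0.98 (SE 0.12, adjusted p = 1.34e-06, limma). Creb5 was 1.32-fold higher, at 1651 ± 192 in the cold and 1248 ± 145 at 22 °C, with overlapping libraries and a log2 difference of 0.40 (SE 0.096, adjusted p = 0.00148, limma).

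The other 8 markers did not pass in DPP4+ cells. Pi16 averaged 39221 ± 6045 in the cold and 30115 ± 5621 at 22 °C, with a log2 difference of 0.39 (SE 0.25, adjusted p = 0.222, limma), and Emilin2 14553 ± 2436 and 12163 ± 1118, with 0.25 (SE 0.12, adjusted p = 0.0961, limma). Dpp4 itself had a log2 difference of 0.22 (SE 0.28, adjusted p = 0.559, limma). The log2 differences of Efhd1 (0.13), Ly6c1 (0.10), Uchl1 (0.07), Anxa3 (0.01) and Limch1 (-0.16) were smaller than their standard errors of 0.13 to 0.26. Emilin2 passed without DPP4- 22 °C library 1 (again 0.25, adjusted p = 0.0499, limma), and with sample weights (0.20, adjusted p = 0.0301, limma). Pi16 passed when only the groups compared were fitted (adjusted p = 0.0290, limma). The median of the 10 log2 differences was 0.17, against 0.01 for all tested genes.

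In DPP4- cells 1 of the 10 markers passed, Uchl1, with 5.22% of all tested genes called, 1.98% higher and 3.23% lower. With the totals of all libraries set equal the all-gene calls were 915 higher and 227 lower, against 259 and 422, and the median of all genes was 0.0970. Uchl1 averaged 10.4 ± 4.08 normalized reads in the cold and 16.8 ± 4.29 at 22 °C, with overlapping libraries and a log2 difference of -0.69 (SE 0.20, adjusted p = 0.0406, limma). The call rested on few reads and was lost without each of 8 single libraries, DPP4+ cold library 3, DPP4+ 22 °C library 4, DPP4- cold libraries 3, 4 and 5 and DPP4- 22 °C libraries 1, 2 and 5, with adjusted p of 0.0513 to 0.105 (limma), as well as by edgeR (adjusted p = 0.232) and DESeq2 (adjusted p = 0.181). Cd55 had 643 ± 131 in the cold and 812 ± 49.4 at 22 °C, a log2 difference of -0.36 (SE 0.12, adjusted p = 0.0963, limma), which passed without DPP4- cold library 1 (-0.45, adjusted p = 0.0338, limma). Anxa3 had -0.47 (SE 0.20, adjusted p = 0.181, limma), Pi16 -0.37, Limch1 -0.31 and Dpp4 -0.29, and Efhd1 (0.15), Creb5 (-0.07), Emilin2 (0.04) and Ly6c1 (0.02) lay within their standard errors. No marker had libraries apart in DPP4- cells, where 4.87% of all tested genes did.

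**Figure D3:**
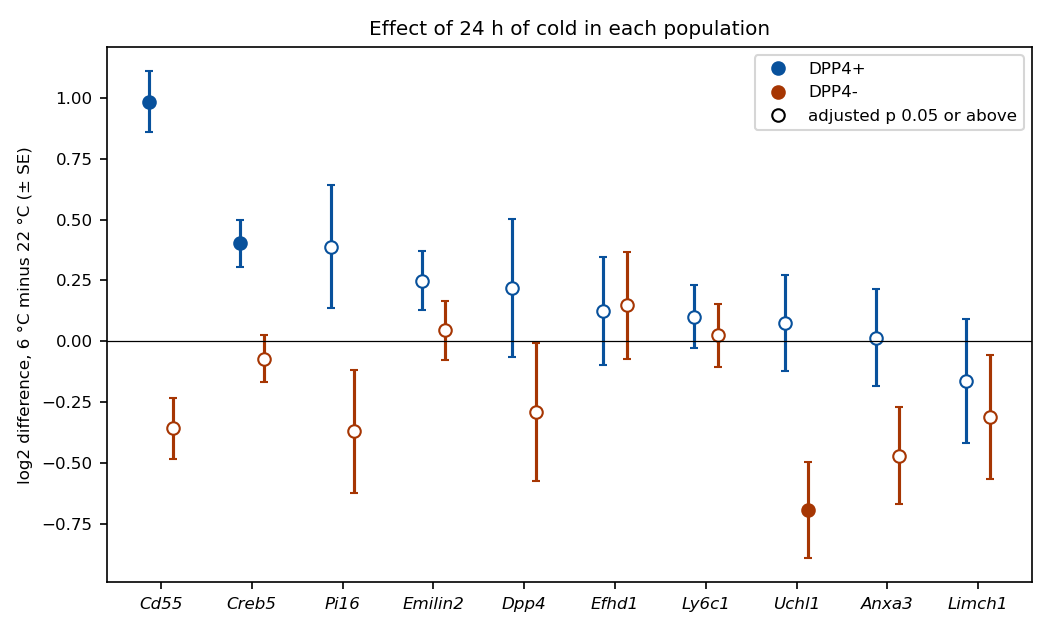
Log2 difference between 6 °C and 22 °C for each marker in DPP4+ and in DPP4- cells, with the standard error of the fit across 20 libraries. Filled points passed (limma adjusted p under 0.05), which were Cd55 (0.98) and Creb5 (0.40) in DPP4+ cells and Uchl1 (-0.69) in DPP4- cells.

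Whether the cold effect differed between the populations was tested directly, as the effect in DPP4+ cells minus the effect in DPP4- cells, which is also the population difference at 6 °C minus that at 22 °C. Since Dpp4 was the sort marker, its value, 0.51, is given with no test. The difference passed for 3 of the other 9 markers, all higher, where 33.2% of all tested genes passed and 16.8% were higher. With totals set equal the all-gene calls were 1128 higher and 3060 lower, against 2192 and 2137, with a median of -0.13. Cd55 had the largest value at 1.34 (SE 0.18, adjusted p = 4.66e-06, limma) and Creb5 had 0.48 (SE 0.14, adjusted p = 0.00943, limma). Uchl1 had 0.77 (SE 0.28, adjusted p = 0.0376, limma), a call that was lost with edgeR (adjusted p = 0.0823), DESeq2 (adjusted p = 0.0627), and 4 other settings, and without each of 11 libraries, DPP4+ cold libraries 2 and 5, DPP4+ 22 °C libraries 1 to 4, DPP4- cold libraries 3, 4 and 5 and DPP4- 22 °C libraries 2 and 5. Pi16 had a value close to that of Uchl1, 0.76, with a wider error (SE 0.36, adjusted p = 0.113, limma), and passed without DPP4- cold library 2 (0.97, adjusted p = 0.0228, limma). Anxa3 (0.48), Emilin2 (0.20), Limch1 (0.15), Ly6c1 (0.08) and Efhd1 (-0.02) had adjusted p-values of 0.202 or more (limma).

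Libraries of a group differed from each other in several markers at once. DPP4+ cold library 5 was the highest of its group for 8 of the 10 markers, while it was the highest for 30.7% of all tested genes, and DPP4+ cold library 1 was the lowest for 7 of 10 (23.8% of all genes). The 10 markers summed to 112422 normalized reads in library 5 and to 76437 in library 1, and the 25 other interstitial progenitor genes to 404620 and 273741. The total of all genes was also highest in library 5 and lowest in library 1 (12.1 and 10.8 M), as were the sums of 8 of the 16 lists examined, fibroblast progenitor markers among them (519536 and 344815), while 4 of the 16 had the reverse order. The 16 committed preadipocyte genes ran the other way, at 40848 in library 5, the lowest, and 50205 in library 1, the highest of the group. In DPP4- cells at 6 °C library 1 was the highest for 6 markers (19.8% of all genes), with Dpp4 at 137 against 47.1 in the next library. The median coefficient of variation of the 10 markers was 18.8% and 11.6% in DPP4+ cells at 6 °C and 22 °C, and 24.1% and 22.6% in DPP4- cells, against 10.8%, 8.10%, 12.8% and 11.4% for all tested genes. Without DPP4+ cold library 5 and DPP4- cold library 1 Cd55 kept a log2 difference of 0.97 in the cold in DPP4+ cells and Creb5 0.35.

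**Figure D4:**
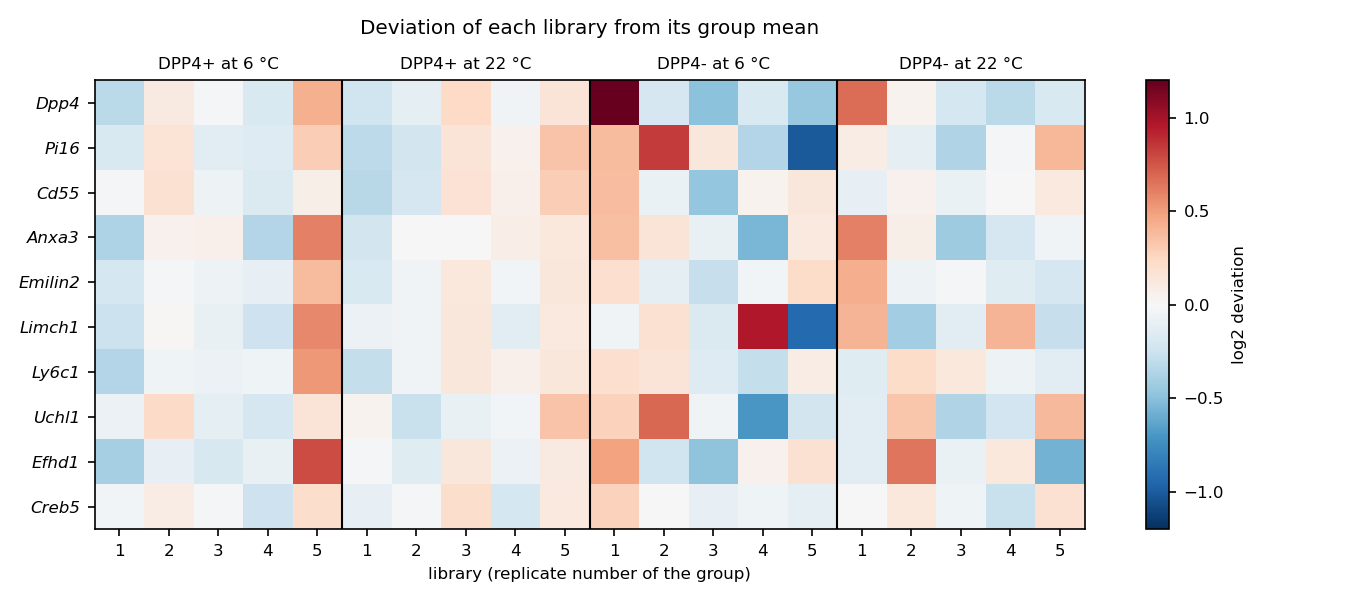
Deviation of each library from its group mean on the log2 scale, for the 10 markers (rows) in the 20 libraries (columns, by group). Red is above and blue below the group mean. DPP4+ cold library 5 is above its group mean for every marker (8 of 10 are highest there), and DPP4- cold library 1 stands out for Dpp4.

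Within a population the markers were fitted against the Dpp4 level of the same library, with temperature as a covariate, over 10 libraries. In DPP4+ cells the slope passed for 8 of 9 markers, all positive, where 24.2% of all genes passed and 12.0% were positive. Emilin2 (slope 0.72, SE 0.10, adjusted p = 0.000122, limma), Ly6c1 (0.96, SE 0.13, adjusted p = 8.77e-05, limma) and Limch1 (0.93, SE 0.14, adjusted p = 0.000242, limma) had the smallest p-values. Slopes were 1.12 for Efhd1, 1.06 for Anxa3, 0.87 for Pi16, 0.57 for Cd55 and 0.53 for Creb5, and 0.43 for Uchl1, which did not pass (adjusted p = 0.178, limma). With totals set equal the slope was positive for 734 and negative for 3523 of all genes called, against 1564 and 1592 (median slope of all genes -0.31), and Cd55 (0.42, adjusted p = 0.181, limma) and Creb5 (0.42, adjusted p = 0.0701, limma) did not pass. With quantile normalization Pi16 (0.34, adjusted p = 0.334, limma) and Cd55 (0.50, adjusted p = 0.231, limma) did not pass. Cd55 was also lost without a filter and without trend and robust fitting. The count depended on the 2 libraries farthest from the median in Dpp4, DPP4+ cold library 5 and DPP4+ 22 °C library 1. Without this pair the slope passed for 3 of 9, Pi16, Limch1 and Efhd1. Calls fell over all genes too, to 306 positive and 142 negative of 13055 genes, against 1564 and 1592. The call of Cd55 was lost without each of 8 single libraries, DPP4+ cold libraries 2, 3 and 4 and DPP4+ 22 °C libraries 1 to 5, and that of Creb5 without DPP4+ cold library 5. Values of a library share its scaling factor, and the totals of the libraries differ. In DPP4- cells the slope passed for 0 of 9 markers and 0 of all genes (limma, 0% of 13056 genes, 1162 of them at an unadjusted p under 0.05), with values from 0.08 for Ly6c1 to 0.38 for Anxa3.

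The genes with the most similar profiles over the 20 libraries were found by the mean absolute difference of centred log2 values among 10167 genes. Since values were centred over both populations, this distance includes the size of the population difference, which for Dpp4 was set by the sort. Dpp4 lay nearest to Akr1c18, an aldo-keto reductase that inactivates progesterone (0.30), then to Pi16 (0.32) and to the ligand Wnt10b (0.42), and Pi16 lay nearest to Dpp4. Akr1c18 had 1051 ± 310 and 799 ± 155 normalized reads in DPP4+ cells at 6 °C and 22 °C, and 4.38 ± 1.79 and 5.75 ± 2.29 in DPP4- cells (SD, n = 5). Wnt10b had 3.03 ± 2.52 and 7.30 ± 2.96 in DPP4- cells. At such low levels the 1 added to each value before the logarithm weighs on the distance. Anxa3 and Uchl1 were each other's nearest gene (0.28). Cd55 lay nearest to the beta-tubulin gene Tubb4a (0.25), followed by Gng4, a G protein gamma subunit (0.25), and Nudt6 (0.25), and Tubb4a was 2.16-fold higher in the cold in DPP4+ cells. Emilin2 was close to Lrrn4cl (0.093), the atypical chemokine receptor Ackr3 (0.13) and Daglb (0.13), and Creb5 to Lims2 (0.10), the procollagen protease Bmp1 (0.12) and Agpat4 (0.12). Limch1 was nearest to the retinaldehyde dehydrogenase Aldh1a3 (0.31), Edn1 (0.32) and Anxa3 (0.33), Efhd1 to Dact2 (0.26), Car8 (0.29) and Sbsn (0.31), and Ly6c1 to Ccdc149, Fam53a and Atox1 (0.12 each).

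The 25 other interstitial progenitor genes were set beside the 10 markers. This list and those below were chosen with earlier results of these data known, so their counts are descriptions. In DPP4+ against DPP4- cells 20 were higher and 3 lower at 6 °C (80.0% and 12.0%, against 38.5% and 35.7% of all tested genes). At 22 °C 17 were higher and 3 lower (68.0% and 12.0%, against 38.7% and 36.2%). Medians were 0.83 at 6 °C and 0.72 at 22 °C, against 0.03 for all genes. Sema3c, a secreted semaphorin, stood at 8735 ± 1853 in DPP4+ and 882 ± 147 in DPP4- cells at 6 °C, and Aldh1a3 at 2104 ± 221 and 49.2 ± 13.8 at 22 °C (SD, n = 5). In the cold 7 of 25 rose in DPP4+ cells and 0 fell (28.0% and 0%, against 23.5% and 22.6% of all tested genes, median 0.12), among them Plac8, at 2900 ± 185 in the cold and 1500.0 ± 155 at 22 °C, the hexosamine pathway enzyme Gfpt2 (67833 ± 2869 and 43315 ± 7268), the sphingomyelinase Smpd3 (6276 ± 1255 and 3242 ± 803) and the tubulin-binding Tppp3 (1342 ± 425 and 821 ± 64.5). In DPP4- cells 0 rose and 3 fell (12.0%, against 3.23% of all tested genes). These were the tubulin regulator Stmn4 (3.03 ± 1.06 in the cold and 13.5 ± 6.24 at 22 °C) and the microfibril genes Mfap5 (2215 ± 354 and 2982 ± 276) and Fbn1 (35618 ± 4937 and 48709 ± 6417). The call of Fbn1 was lost with quantile normalization and without DPP4- cold library 3 or DPP4- 22 °C library 1.

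Close relatives of the 10 markers were split in direction. Of 40 paralogs 28 were tested, and in DPP4+ against DPP4- cells 9 were higher and 17 lower at 6 °C (32.1% and 60.7%, against 38.5% and 35.7% of all tested genes). At 22 °C 6 were higher and 15 lower (21.4% and 53.6%, against 38.7% and 36.2%). Medians were -0.33 at 6 °C and -0.35 at 22 °C. Fap, the peptidase most like DPP4, was lower in DPP4+ cells, at 1019 ± 117 against 2459 ± 91.3 at 6 °C. Among relatives of Anxa3, Anxa5 was lower in DPP4+ cells, at 2537 ± 325 against 6589 ± 392 at 6 °C. Of the relatives of Pi16, Crispld1 was higher in DPP4+ cells, at 777 ± 195 against 27.2 ± 6.07 at 6 °C, while Crispld2 was lower at 22 °C, at 662 ± 97.8 against 4215 ± 497. In the cold 6 of the 28 paralogs rose and 3 fell in DPP4+ cells (21.4% and 10.7%, against 23.5% and 22.6% of all tested genes), with Crispld2 at 1705 ± 163 in the cold and 662 ± 97.8 at 22 °C and Anxa6 at 1429 ± 62.8 and 2483 ± 130 (n = 5), and the Emilin2 relative Emilin1 fell to 997 ± 87.7 in the cold, against 1350 ± 96.8 at 22 °C. In DPP4- cells 1 fell (3.57%, against 3.23% of all tested genes), Anxa2 (7165 ± 434 in the cold and 9178 ± 694 at 22 °C).

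Binding partners, substrates and complement components linked to the 10 proteins were mostly lower in DPP4+ cells. Of 30 genes 24 were tested. Over all tested genes 38.5% were higher and 35.7% lower at 6 °C, and 38.7% and 36.2% at 22 °C. Of the 24, 4 were higher and 18 lower at 6 °C and 4 and 19 at 22 °C (medians -1.63 and -1.28). They included the DPP4 ligands Cav1 (1001 ± 46.9 in DPP4+ and 4459 ± 444 in DPP4- cells at 6 °C) and Ada (46.8 ± 5.75 and 202 ± 30.0), the complement protease C2 (960 ± 219 and 7542 ± 1227) and the protease Ctsk (3122 ± 475 and 14106 ± 1186). In the cold 1 of 24 rose and 10 fell in DPP4+ cells (4.17% and 41.7%, against 23.5% and 22.6% of all tested genes), among them Cav1, at 1001 ± 46.9 in the cold and 2086 ± 199 at 22 °C, the non-muscle myosin heavy chain Myh9 (4329 ± 645 and 9175 ± 842), the chemokine Cxcl12, a DPP4 substrate (3052 ± 412 and 6888 ± 588), and Ada (46.8 ± 5.75 and 83.1 ± 4.54). In DPP4- cells 0 rose and 2 fell (8.33%, against 3.23% of all tested genes). These were Cav1 and Cd59a, a complement inhibitor that works beside Cd55 (46.3 ± 14.0 in the cold and 80.9 ± 17.5 at 22 °C). The call of Cav1 was lost in 7 other settings, with adjusted p of up to 0.182 (limma), and without each of DPP4- cold libraries 1 and 3 and DPP4- 22 °C libraries 1 to 3.

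Markers of the neighbouring progenitor states ran opposite to the 10, in lists also chosen with earlier results of these data known. Of 16 committed preadipocyte genes 15 were lower and 1 higher in DPP4+ cells at each temperature (medians -3.00 at 6 °C and -2.63 at 22 °C), and of 9 CD142+ progenitor genes 9 were lower at 6 °C and 8 at 22 °C. Over all tested genes 35.7% were lower and 38.5% higher at 6 °C, and 36.2% and 38.7% at 22 °C. In the cold 3 of 16 committed preadipocyte genes rose and 8 fell in DPP4+ cells (23.5% of all tested genes rose and 22.6% fell). The median log2 difference of the 16 was -0.27. Among those that rose was the chemokine Cxcl14, at 3249 ± 628 in the cold and 478 ± 30.4 at 22 °C (SD, n = 5). Aoc3 was among those that fell, at log2 differences of -1.61 to -1.52 over left-out libraries. Of the CD142+ genes 1 rose and 6 fell, with F3, which encodes CD142, at 531 ± 26.9 and 2173 ± 180 (SD, n = 5). In DPP4- cells 2 committed preadipocyte genes, Cd36 and Fabp4, rose and 0 fell, and of CD142+ genes 0 rose and 2 fell, Clec11a and Gdf10. Over all tested genes 1.98% rose and 3.23% fell there. When only the groups compared were fitted, Cd36 (adjusted p = 0.0745, limma), Fabp4 (adjusted p = 0.159, limma) and Clec11a (adjusted p = 0.0908, limma) did not pass. Fabp4 was also lost without a filter and without DPP4- cold library 2, DPP4- cold library 3 or DPP4- 22 °C library 3. Gdf10 was lost in 3 other settings and without DPP4- cold library 1, DPP4- cold library 3, DPP4- 22 °C library 1 or DPP4- 22 °C library 5.

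**Figure D5:**
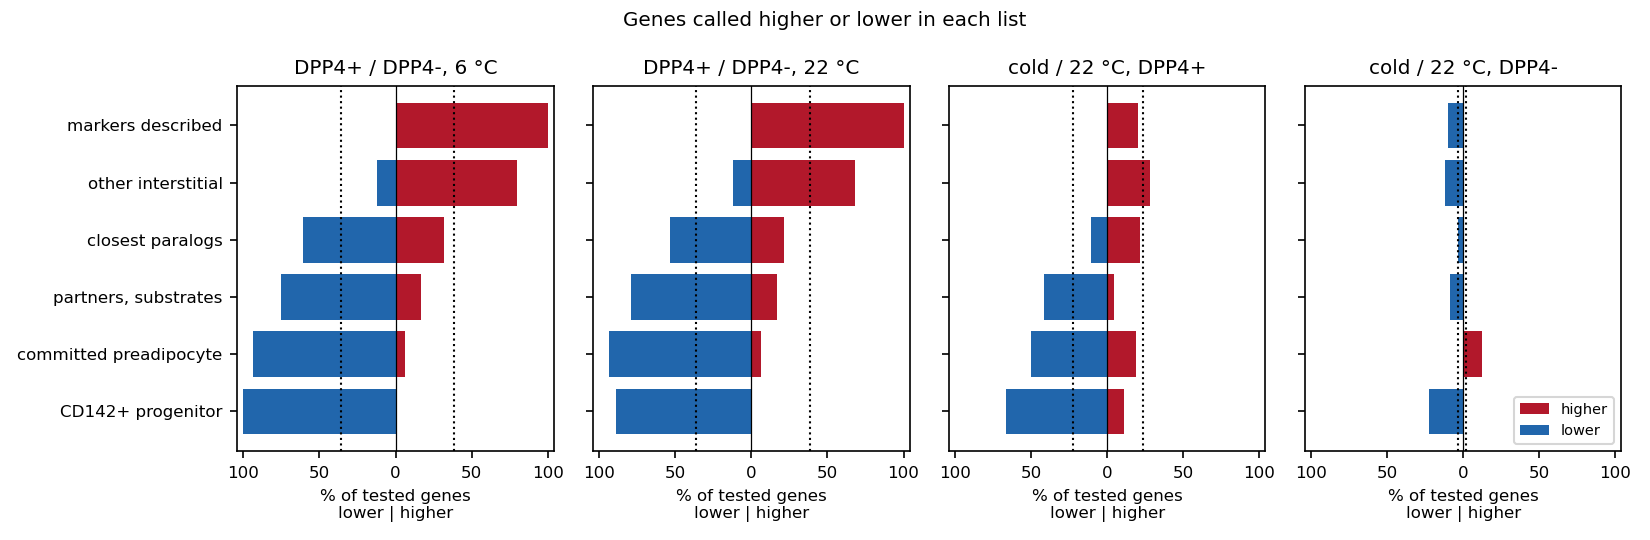
Share of the tested genes of each list called higher (red) or lower (blue) by limma in DPP4+ against DPP4- cells at 6 °C and 22 °C and in the cold against 22 °C in each population. Dotted lines are the shares over all tested genes, and Dpp4 is not counted in the population panels. The markers described fill the higher side in both population panels (9 of 9), and in the cold reach 2 of 10 in DPP4+ cells and 1 of 10 in DPP4- cells.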

How the data were processed

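The authors deposited a table of normalized read counts per gene and library, a signal obtained from gene counts divided by 1 factor per library. The submitters' processing notes name the build GRCm38 and, with no role given, DESeq2 1.6.3, featureCounts 1.4.6, HISAT2 2.0.1 and Trim Galore 0.4.1. The annotation and strand setting are not given in the sources used here, so reads of a gene and of one that overlaps it on either strand may be mixed. All values (100%) were whole multiples of 1 step per library (tolerance 0.1 read), which gave back the reads. Rows without a symbol (958) took 0.0610 to 0.0824% of reads, and 26 symbols turned into dates were restored by gene ID.

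Groups came from the library titles. Genes whose mean was 10 normalized reads or more entered a limma 3.58.1 fit of log2(value + 1), with 4 group means and trend and robust options, under R 4.3.3. It gave 5 contrasts, namely the effect of cold in either population, how far these effects differed, and DPP4+ minus DPP4- at 6 °C and at 22 °C. P-values were two-sided and Benjamini-Hochberg adjusted per comparison, with a threshold of 0.05. Slopes used the 10 libraries of a population. Intervals of steps are 95%. Whole reads were also tested with edgeR 4.0.16 and DESeq2 1.42.0. Folds are ratios of means. Exon lengths are those of GENCODE vM21, coordinates and promoters those of RefSeq GRCm38.p6.

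All 10 members were named in each comparison, with up to 4 genes per list and comparison by smallest adjusted p and the 3 nearest profiles per member. A few named by both rules are given once or as counts. The members and lists were chosen with earlier results of these data known. The procedure was tested on simulated data.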

Additional observations from a re-analysis of the deposited data

Results flagged for a closer look

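In 7 of 40 sets of 5 libraries (10 markers in 4 groups) the highest library was set apart from the other 4. Its gap exceeded Dixon's critical value of 0.71, which chance passes in about 1 in 20 independent sets, counting both ends. The 40 sets share the same 20 libraries and are not independent. In DPP4+ cells at 6 °C library 5 was set apart for Limch1 (1344 normalized reads, next library 907), Ly6c1 (6587, next 4426) and Efhd1 (3078, next 1677). In DPP4- cells at 6 °C library 1 was set apart for Dpp4 (137, next 47.1) and Creb5 (1152, next 949). In DPP4- cells at 22 °C library 1 was set apart for Dpp4 (105, next 67.6) and Emilin2 (5543, next 4051). The 7 cases thus fell on 3 of the 20 libraries.

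The effect of cold differed between DPP4+ and DPP4- cells, by a test of the difference itself, for Cd55 (log2 difference of the effects 1.34), Uchl1 (0.77) and Creb5 (0.48). The call of Uchl1 was lost with edgeR, with DESeq2, in 4 other settings and without each of 11 single libraries.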

How the results depend on the processing

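The 9 markers other than Dpp4 were called higher in DPP4+ cells at both temperatures under each setting tried (9 to 9 over left-out libraries). The rise of Cd55 and Creb5 in DPP4+ cells, and the difference of their cold effects, were called under every setting tried, at log2 values of 0.90 to 1.06 for Cd55 and 0.34 to 0.47 for Creb5 for the rise. Leaving out single libraries gave 2 to 3 members called in the cold in DPP4+ cells, 0 to 2 in DPP4- cells, 2 to 4 for the difference, 7 to 8 for the slope in DPP4+ cells and 0 to 0 in DPP4- cells. The counts of the cold and of the difference include the sort marker Dpp4. For the difference Dpp4 entered the count without DPP4- cold library 1 (0.84). Since DPP4 was sorted for, that value is a description and not a test result for Dpp4. The count of 1 in DPP4- cells became 0 with a pseudocount of 5, without a filter, without trend and robust fitting, with sample weights, with only the groups compared, with edgeR and with DESeq2. It became 3, with Cd55 (-0.45) and Dpp4 (-0.62) added, without DPP4+ cold library 5 and DPP4- cold library 1, an alternative chosen after seeing the data. Without the 2 libraries farthest in Dpp4 the slope count in DPP4+ cells was 3, and the all-gene calls were 306 positive and 142 negative. All-gene counts of the cold in DPP4- cells, 681, were 1142 with totals set equal, 434 with sample weights and 392 with only the groups compared. The cause of these changes was not tested. The correlations of same-numbered libraries ran from -0.228 to 0.267 over all group pairs (best match in 11 of 30 cases). Between the populations at the same temperature they were all positive, from 0.0166 to 0.156 (best match in 6 of 10). These values do not settle whether the samples were paired, and the fits took the 20 libraries as unpaired. With the replicate number as a block, shared by all 4 groups, the fit again called 2 members in the cold in DPP4+ cells and 1 in DPP4- cells. Pairing within a temperature alone was not fitted.

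Values that changed sign were all uncalled. In the cold in DPP4+ cells Anxa3 was -0.0325 with totals set equal, -0.0296 with TMM, -0.15 with quantile normalization, -0.0696 with sample weights and -0.14 without the pair of cold libraries named above. There Ly6c1 was -0.0590 with quantile normalization and -0.0297 without the pair, and Efhd1 -0.0705 without the pair. In DPP4- cells Creb5 was 0.0256 with totals set equal, Ly6c1 -0.0188 with sample weights and -0.0255 without the pair, and Emilin2 -0.00636 without the pair. For the difference Ly6c1 was -0.0669 with totals set equal, -0.12 with quantile normalization and -0.00422 without the pair, Limch1 -0.00576 without the pair, and Efhd1 0.0197 with edgeR and 0.0398 with DESeq2. The slope of Anxa3 in DPP4- cells was -0.00547 without the 2 libraries farthest in Dpp4. Over left-out libraries the cold values in DPP4+ cells ran from -0.137 to 0.106 for Anxa3, -0.0297 to 0.190 for Ly6c1 and -0.0705 to 0.226 for Efhd1, and in DPP4- cells from -0.0112 to 0.153 for Emilin2 and -0.0255 to 0.0965 for Ly6c1. The difference ran from -0.0836 to 0.389 for Limch1, -0.0537 to 0.166 for Ly6c1 and -0.218 to 0.120 for Efhd1, and the slope in DPP4- cells from -0.0206 to 0.284 for Cd55, -0.0318 to 0.712 for Limch1 and -0.115 to 0.157 for Ly6c1.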
